A study of Arabidopsis thaliana with 12 samples.

Results

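The comparison set leaves of an Arabidopsis thaliana line with wild-type EDS1, written w.tEDS1 in the labels, against the leaves of 2 lines with altered EDS1, averaged as their mean. Those lines were R493A, whose EDS1 carries alanine in place of the arginine at the residue its name gives, and eds1-2, a mutant that has lost EDS1 function. The members are 9 of the 12 libraries of the series, 3 for each line, and the 3 Col-0 libraries were left out by the rule of the comparison. All 9 libraries were RNA of plants 4 weeks old, grown at 22 °C with 10 h of light. Their leaves had received Pst AvrRps4, which is Pseudomonas syringae pv. tomato armed with the effector protein AvrRps4, through a syringe at an OD600 of 0.005, 4 h before sampling. Each library pooled the RNA of 4 plants, and whether the 3 pools of a line were grown on separate occasions was not given in the sources used here. The labels name no parent line, promoter or transformation event for w.tEDS1 and R493A, so each is treated as 1 line. No mock-treated leaves were used here, so the values compare infected lines with each other and not infected with uninfected leaves.

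EDS1 is a lipase-like protein of the plant cytoplasm and nucleus whose immune role does not need lipase activity. It pairs with its relatives PAD4 or SAG101, and these pairs act with helper receptors of the ADR1 and NRG1 families once an intracellular receptor with a TIR domain has recognised a pathogen protein. AvrRps4 is recognised by such a receptor, the RPS4 and RRS1 pair. In leaves this route is known for raising salicylic acid, a defence hormone made from isochorismate, and for limiting jasmonate responses.

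The residue that separates R493A from w.tEDS1 lies in the C-terminal part of EDS1, and the stretch around it is shown because it holds the residue changed in R493A. EDS1 (AT3G48090) is on chromosome 3, and in the TAIR10.1 RefSeq assembly the codon that the name R493A refers to, counted from the start codon among its 623 codons, falls in the last of its 4 coding exons. The 63 coding bases read from chr3:17755916-17755978 on the minus strand are those of the reference, with that arginine codon in capitals (positions 17755946 to 17755948).
EDS1 R493A codon: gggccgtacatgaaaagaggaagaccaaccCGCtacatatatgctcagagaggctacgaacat

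EDS1 itself was measured at 126, 199 and 111 CPM in w.tEDS1, against 31.6, 23.7 and 19.6 CPM in R493A and 3.86, 4.14 and 4.02 CPM in eds1-2, as read counts scaled to a common library size (CPM, the level used throughout, with replicates 1 to 3 in that order). The w.tEDS1 libraries were the highest, the eds1-2 libraries the lowest, and no 2 lines overlapped. EDS1 rose in w.tEDS1 over the mean of the other lines (log2 change 3.86, SE 0.20, adjusted p = 0.000101) in edgeR's quasi-likelihood test, which gives every fold change and adjusted p below. R493A in turn lay above eds1-2 by 2.64 on the log2 scale (SE 0.26, 95% interval 2.06 to 3.22, adjusted p = 0.00685). R493A and w.tEDS1 therefore differed in the level of EDS1 RNA as well as in the residue, and what each contributes to the genes below cannot be told apart. With the EDS1 gene sits its near-identical neighbour EDS1B (AT3G48080), so reads may be split unevenly between the copies.

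The gene counts of a library summed to between 19273912 and 24572145, and 18562 of 32678 genes had enough counts to be tested. The median SD of log2 CPM over the 3 libraries of a line was 0.191 in w.tEDS1, 0.182 in R493A and 0.221 in eds1-2. All w.tEDS1 libraries came from lane 7 of the main sequencing run, which also held R493A replicate 1 and eds1-2 replicate 2. R493A replicate 2 and eds1-2 replicate 1 came from another run, and the remaining libraries from lane 8 of the main run. The lines did not separate on the first principal component (34.2% of the variance), while on the second (19.9%) the w.tEDS1 libraries lay at −29.9, −11.7 and −34.5, the R493A libraries at 16.2, 29.4 and 12.7 and the eds1-2 libraries at 16.5, 8.77 and −7.46. The samples had the RNA of leaves: 24 photosynthesis genes summed to at least 77138 CPM in each library, against at most 11 CPM for 6 root markers, 1.27 CPM for 3 flower markers and 0.119 CPM for 4 seed markers. None of the tested markers of dividing cells (5), guard cells (7) and phloem (6) passed the test between the lines.

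In w.tEDS1, 138 genes were higher than in the other lines and 2 were lower at an adjusted p under 0.05, which is 0.743% and 0.0108% of the genes tested. Genes past that threshold are called higher or lower below. The median change of the 138 was 1.91 on the log2 scale, and 117 of them changed by at least 1, 65 by at least 2 and 27 by at least 3. For 132 of the 138 the 3 w.tEDS1 libraries lay above all 6 others, an arrangement that 482 of the genes tested showed (2.6%), and 148 genes showed the opposite one (0.797%). Bulk leaf RNA cannot tell a change in the RNA of each cell from a change in the number of cells that make it. In lane 7 alone, where w.tEDS1 has 3 libraries and each other line 1, all 140 called genes kept their direction and 2 stayed past the threshold, a fit with 2 residual degrees of freedom. With the lane as a covariate 10 stayed called. With the 3 Col-0 libraries added to the fit 51 stayed called. Genes named here that lost their call then were PAD4, EDS1B, ICS1, PBS3, EDS5, FMO1, WRKY38, WRKY46, WRKY60, PR2, PNP-A, AIG1, PUB54, RLP41, CRK8, CRK36, CRK37, CRK38, WAK2, SOBIR1, AT3G04210, AT1G17600, AT4G11170, AT4G36150, AT5G46490, AT1G58602, AT3G10020, AT1G36600, GRXS13 and CPK31, with adjusted p between 0.0632 (RLP41) and 0.999999 (EDS5 and CRK36).

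**Figure D1:**
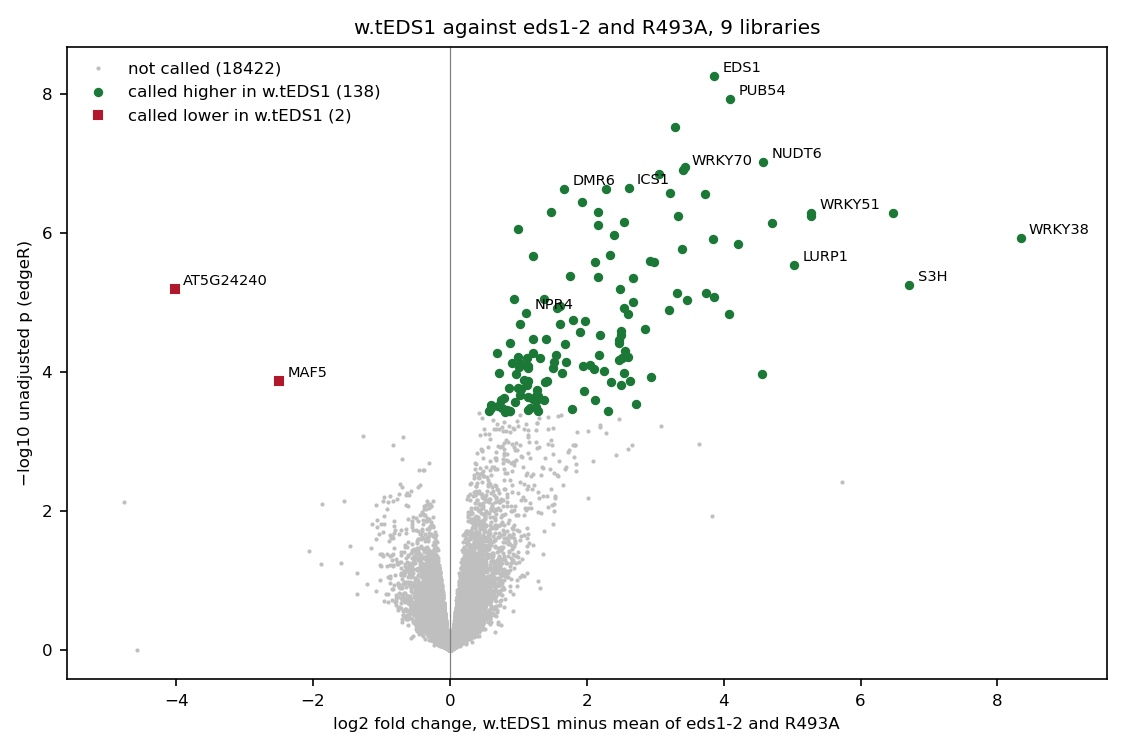
Each point is 1 of 18562 tested genes, with the log2 fold change of w.tEDS1 minus the mean of R493A and eds1-2 on the x axis and −log10 of the unadjusted edgeR p on the y axis. The 138 genes called higher reach a log2 fold change of 8.34 at WRKY38, while only AT5G24240 and MAF5 were called lower.

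Of 9 tested genes in the EDS1 family and its helper receptors, 4 rose in w.tEDS1, none was called lower, and the median log2 fold change was 0.69. The 4 were EDS1, EDS1B, PAD4 and NRG1.2. EDS1 is the gene by which the lines were chosen, so its call is not a result about the family. The counts of EDS1B may include reads of its near-identical neighbour EDS1. Over all genes tested 0.743% were called higher and the median was −0.01. PAD4, the partner of EDS1 in basal and TIR-triggered defence, stood at 56, 76.6 and 42.5 CPM in w.tEDS1, against 13, 14.1 and 13.9 CPM in R493A and 12.7, 9.33 and 14.9 CPM in eds1-2. Every w.tEDS1 library was above every other library (log2 change 2.17, SE 0.18, adjusted p = 0.000552), and the R493A and eds1-2 values overlapped. SAG101, the partner that works with NRG1, differed less, with 29.5 to 32.7 CPM in w.tEDS1, 21 to 27.1 CPM in R493A and 21.5 to 25.2 CPM in eds1-2. The SAG101 libraries of w.tEDS1 also lay above all others, but the change did not pass the test (log2 change 0.39, SE 0.10, adjusted p = 0.25). EDS1B measured 1.18 to 2.53 CPM in w.tEDS1, 0.208 to 0.584 CPM in R493A and 0.0872 to 0.49 CPM in eds1-2, an increase in w.tEDS1 (log2 change 2.63, SE 0.43, adjusted p = 0.0241) that lost its call without w.tEDS1 replicate 2 or 3, eds1-2 replicate 2, or R493A replicate 2 or 3 (adjusted p up to 0.129).

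Among the helper receptors NRG1.2 rose, with 18.22 to 42.4 CPM in w.tEDS1, 6.83 to 8.18 CPM in R493A and 7.3 to 12 CPM in eds1-2 (log2 change 1.69, SE 0.25, adjusted p = 0.0163). Its call was lost without R493A replicate 2 or 3 (adjusted p up to 0.0558). NRG1.1, a close relative that also carries signals from TIR receptors, did not pass the test (log2 change 0.15, SE 0.12, adjusted p = 0.998), and the lines overlapped. ADR1-L1 and ADR1-L2, helpers that work with PAD4, were higher in every w.tEDS1 library than in any other, with log2 fold changes of 0.69 and 0.66 that did not pass the test (adjusted p = 0.0667 and 0.17). The 4 receptor genes for AvrRps4 itself (RPS4, RRS1, RPS4B and RRS1B) all overlapped between the lines, with log2 fold changes between −0.02 and 0.26 and no call.

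Salicylic acid synthesis and turnover held 6 called genes among 11 tested, all higher in w.tEDS1, with a median of 1.12 on the log2 scale, where 0.743% of all genes tested were called higher. ICS1 makes isochorismate in the chloroplast and is the main source of salicylic acid after infection. Its level was 47.8, 65.7 and 30.4 CPM in w.tEDS1, against 8.54, 7.2 and 6.87 CPM in R493A and 8.99, 7.37 and 8.18 CPM in eds1-2. The w.tEDS1 libraries lay well above all others, and R493A overlapped eds1-2 (log2 change 2.61, SE 0.20, adjusted p = 0.00042). PBS3 joins isochorismate to glutamate, the step after export, and measured 55.2, 66.5 and 47.8 CPM in w.tEDS1, against 12.8, 8.5 and 7.65 CPM in R493A and 11.8, 17 and 13.2 CPM in eds1-2. Here too the w.tEDS1 libraries stood apart (log2 change 2.28, SE 0.18, adjusted p = 0.00042), while R493A minus eds1-2 was −0.54 on the log2 scale and did not pass the test. EDS5, the transporter that carries isochorismate out of the chloroplast, rose less (log2 change 1.12, SE 0.17, adjusted p = 0.0147), and lost its call without w.tEDS1 replicate 2, eds1-2 replicate 2 or R493A replicate 3 (adjusted p up to 0.059).

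Some enzymes that consume salicylic acid rose beside ICS1 and PBS3. DMR6, S3H and UGT76B1 were called, while the list members UGT74F1, UGT74F2 and BSMT1 were not. DMR6, a salicylic acid hydroxylase, measured 100.001, 144 and 141 CPM in w.tEDS1, against 38.7, 39.2 and 47.1 CPM in R493A and 42.2, 40.3 and 34.4 CPM in eds1-2, with w.tEDS1 above both other lines in every library (log2 change 1.67, SE 0.13, adjusted p = 0.00042). S3H, a second hydroxylase, was close to absent outside w.tEDS1: the 3 libraries of a line together held 291 reads in w.tEDS1, 3 in R493A and 2 in eds1-2. Scaled for library size, w.tEDS1 had 119 times the level of the other lines together, with a counting interval at 95% of 50.4 to 369 that covers counting error only. UGT76B1, which attaches glucose to salicylic acid, rose by 1.94 on the log2 scale (adjusted p = 0.0173), a call lost without w.tEDS1 replicate 2, eds1-2 replicate 2 or R493A replicate 1 (adjusted p up to 0.0623). BSMT1, which makes volatile methyl salicylate, and ICS2, the minor isochorismate synthase, overlapped between the lines and did not pass the test (log2 fold changes −0.87 and −0.43).

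Of 9 tested regulators of ICS1 transcription, which include CBP60A and CAMTA3, known as negative regulators, 2 rose in w.tEDS1, and the median was 0.05 (0.743% of all genes were called higher). SARD1, a calmodulin-binding-protein relative that activates ICS1, measured 56.7, 121 and 58 CPM in w.tEDS1, against 9.21, 7.71 and 7.75 CPM in R493A and 11.7, 10.1 and 10.4 CPM in eds1-2. All 3 w.tEDS1 libraries were well above the rest, and the R493A libraries lay just below those of eds1-2 without passing the test (log2 change 3.06, SE 0.22, adjusted p = 0.000372). CBP60G, its partner in that role, had 77.7, 84.1 and 52.1 CPM in w.tEDS1, against 42.9, 30.5 and 35.8 CPM in R493A and 25.8, 36.2 and 52.7 CPM in eds1-2. In CBP60G the lowest w.tEDS1 library fell just below the highest eds1-2 library, and the change did not pass the test (log2 change 0.94, SE 0.22, adjusted p = 0.147). WRKY46, another activator, was called higher, with 60.9 to 97.2 CPM in w.tEDS1, 18.5 to 31.1 CPM in R493A and 18.8 to 30.5 CPM in eds1-2 (log2 change 1.60, SE 0.21, adjusted p = 0.00648). WRKY28, TGA1, TGA4, NTL9, CBP60A and CAMTA3 were not called, with log2 fold changes between −0.14 and 0.22.

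The pipecolic acid route makes a second mobile defence signal, and only FMO1, which performs its last step, passed the test among the 3 genes examined. FMO1 levels were low, at 1.47, 2.07 and 3.37 CPM in w.tEDS1, against 0.629, 0.231 and 0.208 CPM in R493A and 0.477, 0.436 and 0.245 CPM in eds1-2. The w.tEDS1 libraries lay above the others (log2 change 2.60, SE 0.38, adjusted p = 0.0147), and the call was lost without w.tEDS1 replicate 2 or 3 or eds1-2 replicate 2 (adjusted p up to 0.0815). ALD1, the first enzyme of the route, measured 3.39, 4.63 and 10.2 CPM in w.tEDS1, against 1.84, 3.65 and 1.77 CPM in R493A and 3.54, 3.09 and 2.69 CPM in eds1-2. Its high w.tEDS1 value came from replicate 3, the lines overlapped, and the test was not passed (log2 change 1.14, SE 0.35, adjusted p = 0.385).

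**Figure D2:**
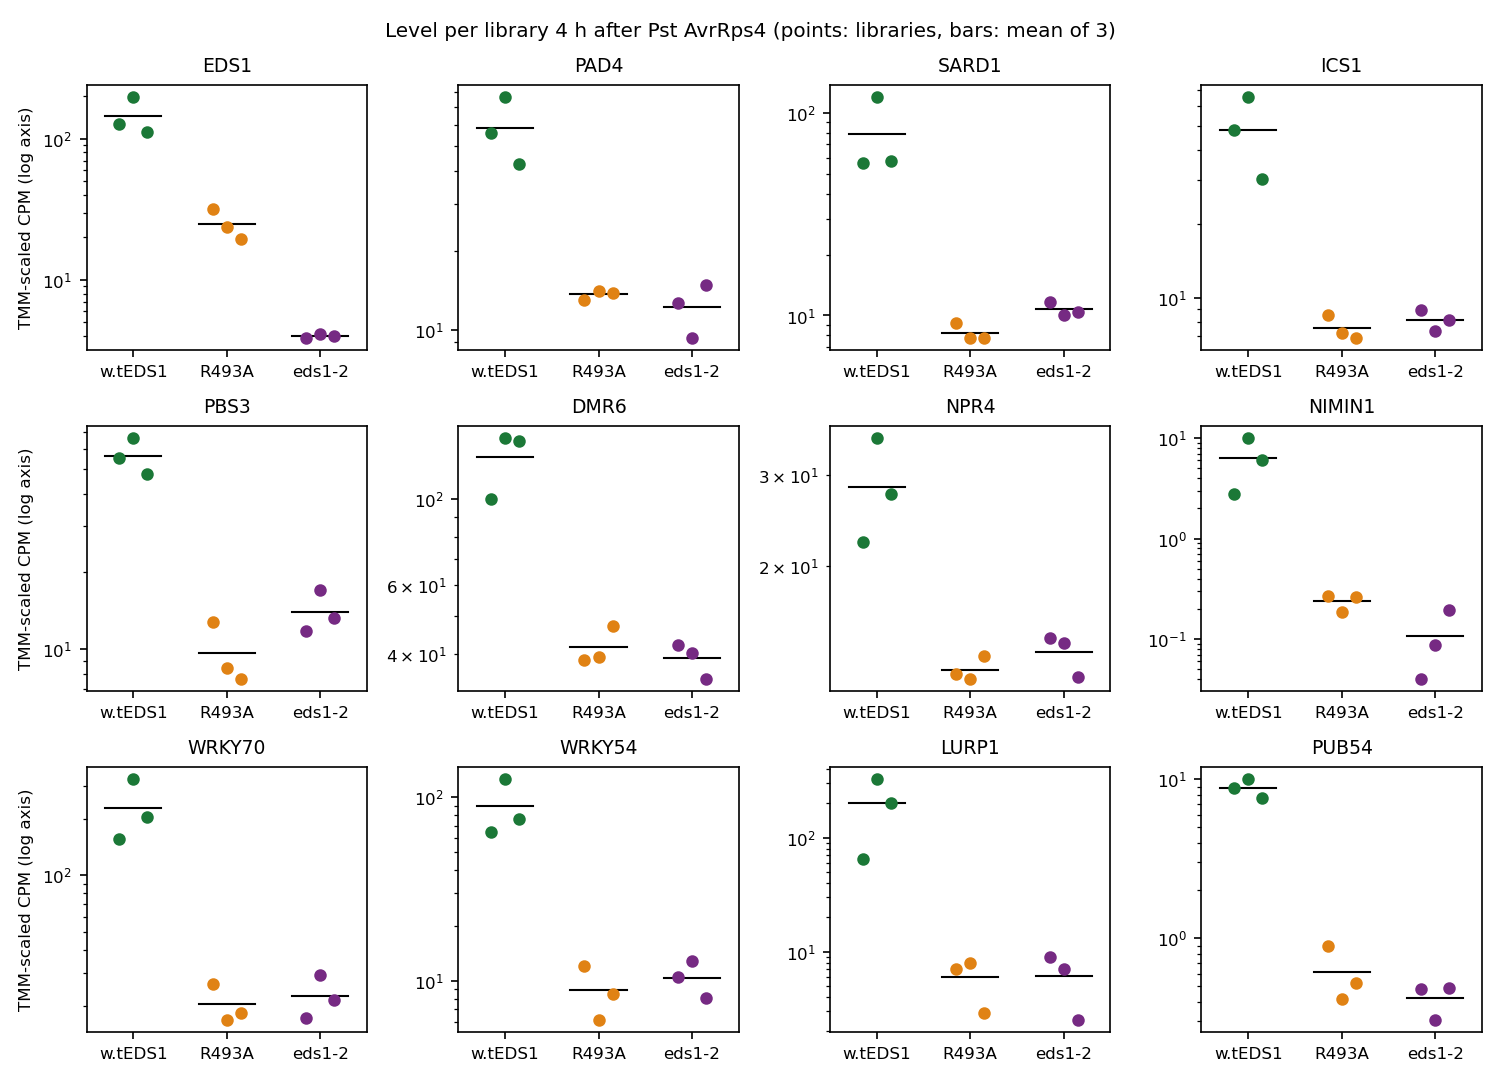
The panels plot TMM-scaled CPM on a log axis for 12 genes, with 1 point per library and a bar at the mean of 3, for w.tEDS1, R493A and eds1-2 from left to right. In all 12 panels the w.tEDS1 points lie above the other 6, and EDS1 is the panel in which R493A stands clear of eds1-2 at several times its level.

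Of 10 tested receptors of salicylic acid and their partners 3 rose, against 0.743% of all genes, with a median of 0.52. NPR4, a salicylic acid receptor that represses defence genes, measured 22.2, 35.5 and 27.6 CPM in w.tEDS1, against 12.4, 12.1 and 13.4 CPM in R493A and 14.6, 14.2 and 12.2 CPM in eds1-2, higher in each w.tEDS1 library than elsewhere (log2 change 1.11, SE 0.14, adjusted p = 0.00501). NPR1, the receptor that activates them, was also above the others in each w.tEDS1 library, at 72.8 to 85.2 CPM in w.tEDS1, 54.8 to 64.3 CPM in R493A and 59.9 to 68.6 CPM in eds1-2, but did not pass the test (log2 change 0.37, SE 0.09, adjusted p = 0.151). The inhibitory NPR1 partner NIMIN1 was among the largest increases, with 2.8, 10.1 and 6.04 CPM in w.tEDS1, against 0.27, 0.185 and 0.26 CPM in R493A and 0.0398, 0.0872 and 0.196 CPM in eds1-2. No NIMIN1 value outside w.tEDS1 exceeded 0.270 CPM (log2 change 5.28, SE 0.45, adjusted p = 0.000552). NIMIN2, a relative, rose as well (log2 change 2.48, SE 0.34, adjusted p = 0.0104), and its call was lost without w.tEDS1 replicate 2 or 3 (adjusted p up to 0.0546). The factors TGA2, TGA3, TGA5 and TGA6, through which NPR proteins reach DNA, had log2 fold changes between −0.03 and 0.07 and no call.

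Of 19 genes known to respond to salicylic acid, 13 were called higher, all 19 had a positive fold change, and the median was 2.84 on the log2 scale. Over all genes tested, 0.743% were called higher and 8571 of 18562 had a positive fold change. The list of 19 was drawn up with earlier results of these data known, so its count is a description. WRKY70, a transcription factor downstream of salicylic acid, measured 156, 327 and 205 CPM in w.tEDS1, against 26.1, 16.8 and 18.4 CPM in R493A and 17.3, 29.2 and 21.5 CPM in eds1-2. Its partner in function WRKY54 had 64.8, 126 and 76.2 CPM in w.tEDS1, against 12.1, 6.09 and 8.43 CPM in R493A and 10.5, 12.8 and 8.03 CPM in eds1-2. Both factors stood apart in w.tEDS1, with R493A and eds1-2 overlapping (log2 change 3.41, SE 0.24, adjusted p = 0.000372 for WRKY70, and log2 change 3.21, SE 0.25, adjusted p = 0.00042 for WRKY54). WRKY51, which acts with WRKY50 to repress jasmonate signalling, was at 2.85, 10.2 and 4.49 CPM in w.tEDS1, against 0.135, 0.139 and 0.052 CPM in R493A and 0.199, 0.174 and 0.196 CPM in eds1-2, and thus barely detected outside w.tEDS1 (log2 change 5.28, SE 0.44, adjusted p = 0.000552). WRKY38 held 232 reads over the 3 w.tEDS1 libraries, 1 over the R493A libraries and 0 over the eds1-2 libraries. Against a floor of 3 counts over the eds1-2 libraries, WRKY38 was at least 82.3-fold higher in w.tEDS1, and the ratio to R493A and eds1-2 together was 474 (counting interval 84.3 to 18809).

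NUDT6, a nudix hydrolase of NADH and ADP-ribose, measured 8.01, 18.17 and 13.9 CPM in w.tEDS1, against 0.27, 0.877 and 0.468 CPM in R493A and 0.477, 0.697 and 0.539 CPM in eds1-2. LURP1, a gene needed for defence against downy mildew, had 65.5, 331 and 203 CPM in w.tEDS1, against 7.06, 7.89 and 2.91 CPM in R493A and 8.99, 7.02 and 2.5 CPM in eds1-2. PCC1, a small membrane-anchored protein under pathogen and clock control, reached 71.8, 92.4 and 164 CPM in w.tEDS1, against 11.7, 8.17 and 11.3 CPM in R493A and 6.08, 9.46 and 3.97 CPM in eds1-2. In these 3 genes every w.tEDS1 library was several times as high as any other library, with log2 fold changes of 4.58, 5.03 and 3.73 (adjusted p = 0.000372, 0.00158 and 0.00042). The other called members were PR2, SIB1, PNP-A, AIG1, WRKY50 and WRKY60, with log2 fold changes between 1.32 (WRKY60) and 3.20 (WRKY50). Calls of AIG1 and WRKY60 depended on which libraries were in the fit. Each was lost without w.tEDS1 replicate 2 or 3, AIG1 also without eds1-2 replicate 2 or R493A replicate 2, and WRKY60 without R493A replicate 3 (adjusted p up to 0.0942 for AIG1 and 0.0806 for WRKY60). With each library left out in turn, the log2 fold change ran from 1.92 to 2.36 for AIG1 and from 1.13 to 1.44 for WRKY60.

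PR1, the usual marker of a full salicylic acid response, was not called. Its levels were 0.246, 0.75 and 26.4 CPM in w.tEDS1, against 0, 1.34 and 0 CPM in R493A and 0, 0 and 0.196 CPM in eds1-2. The high PR1 value belonged to w.tEDS1 replicate 3 alone, and without that library the log2 fold change was 1.56, against 5.72 with all 9 libraries (adjusted p = 0.235). PR2, a secreted glucanase, was higher in all w.tEDS1 libraries (44.7, 29.7 and 118 CPM in w.tEDS1, against 9.57, 12.1 and 9.78 CPM in R493A and 10.5, 6.1 and 5.98 CPM in eds1-2), and its highest value also came from replicate 3 (log2 change 2.84, SE 0.37, adjusted p = 0.00745). PR5, a thaumatin-like protein, overlapped between the lines (log2 change 0.96, SE 0.41, adjusted p = 0.838). WRKY18 and WRKY53, early pathogen-responsive factors, overlapped too, with log2 fold changes of 0.33 and 0.06.

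Because these genes moved together, the 250 bases before the annotated start of 3 of them are shown, for the regulators SARD1 and WRKY70 and for ICS1. Capitals mark the letters TTGAC (the core of the W box, which WRKY factors bind), TGACG (the core that TGA factors bind) and GAAATTT (the element that SARD1 and CBP60G bind in the ICS1 promoter), searched on both strands. TTGAC and TGACG share letters where TTGACG occurs. Positions are those of TAIR10.1, chr1:27749249-27749498 on the minus strand for SARD1, chr3:20910624-20910873 on the minus strand for WRKY70 and chr1:28070045-28070294 on the plus strand for ICS1.
SARD1: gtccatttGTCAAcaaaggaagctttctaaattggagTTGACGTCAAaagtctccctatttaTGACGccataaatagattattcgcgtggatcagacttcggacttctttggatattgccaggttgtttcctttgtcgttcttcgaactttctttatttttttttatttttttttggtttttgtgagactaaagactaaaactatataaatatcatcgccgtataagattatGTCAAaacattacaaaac
WRKY70: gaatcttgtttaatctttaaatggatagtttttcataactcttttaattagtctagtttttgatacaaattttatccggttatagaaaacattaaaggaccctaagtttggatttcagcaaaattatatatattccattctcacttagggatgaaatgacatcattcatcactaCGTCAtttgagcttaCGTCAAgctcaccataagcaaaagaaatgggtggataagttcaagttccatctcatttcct
ICS1: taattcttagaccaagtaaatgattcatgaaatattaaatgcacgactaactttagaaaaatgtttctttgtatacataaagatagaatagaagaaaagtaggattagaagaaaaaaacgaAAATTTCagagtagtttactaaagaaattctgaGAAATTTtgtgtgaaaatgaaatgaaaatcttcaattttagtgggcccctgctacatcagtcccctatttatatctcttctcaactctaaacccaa

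The SARD1 window held 4 copies of TTGAC and 3 of TGACG, the WRKY70 window 1 and 2, and the ICS1 window 2 copies of GAAATTT and neither of the others. Such a window of NIMIN1 held none of the 3. Over the genes called higher whose window could be read, 83 of 134 (61.9%) held TTGAC, against 8159 of 18049 tested protein-coding genes (45.2%). At least 2 copies were present in 29.9% of the called genes and 14.6% of all. TGACG was found in 26.9% and 19.6%, and GAAATTT in 11.9% and 12.8%. The motifs were chosen after the called genes were known, and a match of letters is a description of the window, not evidence of binding.

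The rule for named genes added the largest increases whatever their role, and several belong to no pathway list. PUB54, a U-box protein of a family of ubiquitin ligases, measured 8.79, 10.1 and 7.58 CPM in w.tEDS1, against 0.899, 0.416 and 0.52 CPM in R493A and 0.477, 0.305 and 0.49 CPM in eds1-2. Its 3 w.tEDS1 libraries were close to each other and far above the rest (log2 change 4.097, SE 0.23, adjusted p = 0.000109). AT5G03350, a legume-type lectin, reached 72.3, 354 and 141 CPM in w.tEDS1, against 6.38, 7.53 and 6.87 CPM in R493A and 9.34, 8.02 and 5.39 CPM in eds1-2, with w.tEDS1 replicate 2 the highest by far (log2 change 4.70, SE 0.41, adjusted p = 0.000632). AT5G24200, an alpha/beta-hydrolase like EDS1 by annotation, had 8.15 to 22.4 CPM in w.tEDS1, 0.364 to 1.15 CPM in R493A and 0.931 to 1.47 CPM in eds1-2 (log2 change 3.85, SE 0.36, adjusted p = 0.000874). RLP41, a receptor-like protein, had 4.23 to 13.5 CPM in w.tEDS1, 0.405 to 0.60 CPM in R493A and 0.349 to 1.07 CPM in eds1-2 (log2 change 3.75, SE 0.43, adjusted p = 0.00318). In all 4 genes no other library reached the lowest w.tEDS1 library.

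Surface receptors were counted over families defined from gene names and annotations after the values were seen. Of 34 tested cysteine-rich receptor-like kinases, 4 were called higher (11.8%, against 0.743% of all genes), namely CRK36, CRK37 and CRK38, which are neighbours on chromosome 4, and CRK8. CRK37 measured 5.5, 2.16 and 4.49 CPM in w.tEDS1, against 0.135, 0.185 and 0.52 CPM in R493A and 0.398, 0.0872 and 0.343 CPM in eds1-2 (log2 change 3.85, SE 0.44, adjusted p = 0.00356). The calls of CRK37 and CRK38 held without any 1 library, whereas CRK36 lost its call without w.tEDS1 replicate 1 or 3, eds1-2 replicate 2 or R493A replicate 3, and CRK8 whichever library was left out (adjusted p up to 0.0880 for CRK36 and 0.26 for CRK8). Of 41 receptor-like proteins, which sense molecules outside the cell but lack a kinase, 4 were called higher (9.76%), namely RLP34, RLP36, RLP38 and RLP41. RLP34 had 21.3 to 85.2 CPM in w.tEDS1, 3.73 to 4.25 CPM in R493A and 2.3 to 6.72 CPM in eds1-2. The w.tEDS1 libraries of RLP34 did not overlap the others (log2 change 3.47, SE 0.41, adjusted p = 0.00373). RLP36 lost its call without w.tEDS1 replicate 2 or 3, R493A replicate 1 or 3, or eds1-2 replicate 2 (adjusted p up to 0.141). WAK1 and WAK2, kinases that touch the cell wall, were called among 9 tested wall-associated kinases (22.2%), with log2 fold changes of 2.18 and 1.96. WAK1 lost its call without eds1-2 replicate 2 or R493A replicate 3, and WAK2 without w.tEDS1 replicate 2 or 3, eds1-2 replicate 2 or 3, or any 1 R493A library (adjusted p up to 0.052 for WAK1 and 0.141 for WAK2).

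Intracellular receptors showed many small positive values. Of 65 tested genes annotated TIR-NBS-LRR, 62 had a positive fold change and the median was 0.32, against 8571 of 18562 and −0.01 over all genes. Among the 65, 4 were called (6.15%, against 0.743% of all genes called higher). These 4 were AT4G11170, AT1G17600, AT5G46490 and AT4G36150, with log2 fold changes between 0.97 and 2.55, and each lost its call without w.tEDS1 replicate 2 and without 3 or more other libraries in turn (adjusted p up to 0.127). AT3G04210, a TIR-NBS protein without the repeat domain, measured 75.3, 126 and 96.7 CPM in w.tEDS1, against 40.7, 33.5 and 39.7 CPM in R493A and 38.1, 33 and 46.1 CPM in eds1-2. Its w.tEDS1 libraries lay above all others (log2 change 1.37, SE 0.16, adjusted p = 0.00366), and R493A and eds1-2 overlapped. AT1G72910, annotated as a TIR domain-containing protein, had 26.3, 63.4 and 23.1 CPM in w.tEDS1, against 3.55, 7.25 and 4.73 CPM in R493A and 7.0, 6.71 and 6.17 CPM in eds1-2. It rose (log2 change 2.68, SE 0.32, adjusted p = 0.0038) and stayed called whichever library was left out. Its neighbour AT1G72930, also a TIR protein by annotation, rose by 1.42 on the log2 scale. The call of AT1G72930 was lost without w.tEDS1 replicate 2 or 3, R493A replicate 1 or 3, or eds1-2 replicate 2 or 3 (adjusted p up to 0.0952). Among the WRKY factors as a family 7 of 52 were called (13.5%), yet the median was −0.05 and 22 of 52 were positive.

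Of the 138 genes called higher, 25 had another of them within 10 kb (18.1%), whereas 2.89% of 18443 tested genes with a position had a called neighbour that near. Beside the CRK, WAK, TIR and EDS1 pairs above these included PCC1 with AT3G22235, a cysteine-rich membrane protein at 75.9, 109.8 and 142 CPM in w.tEDS1, against 13.6, 10.9 and 14 CPM in R493A and 8.51, 12.7 and 7.94 CPM in eds1-2. AT3G22235 did not overlap between w.tEDS1 and the rest (log2 change 3.29, SE 0.20, adjusted p = 0.000186). Tandem copies can share reads, so the split of counts within such pairs is uncertain. By chromosome, 36, 15, 33, 21 and 33 of the called genes lay on chromosomes 1 to 5. The 2 Mb on either side of EDS1 held 7 called genes among 617 tested (1.13%), EDS1 and EDS1B included, against 0.73% elsewhere, and none called lower.

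**Figure D3:**
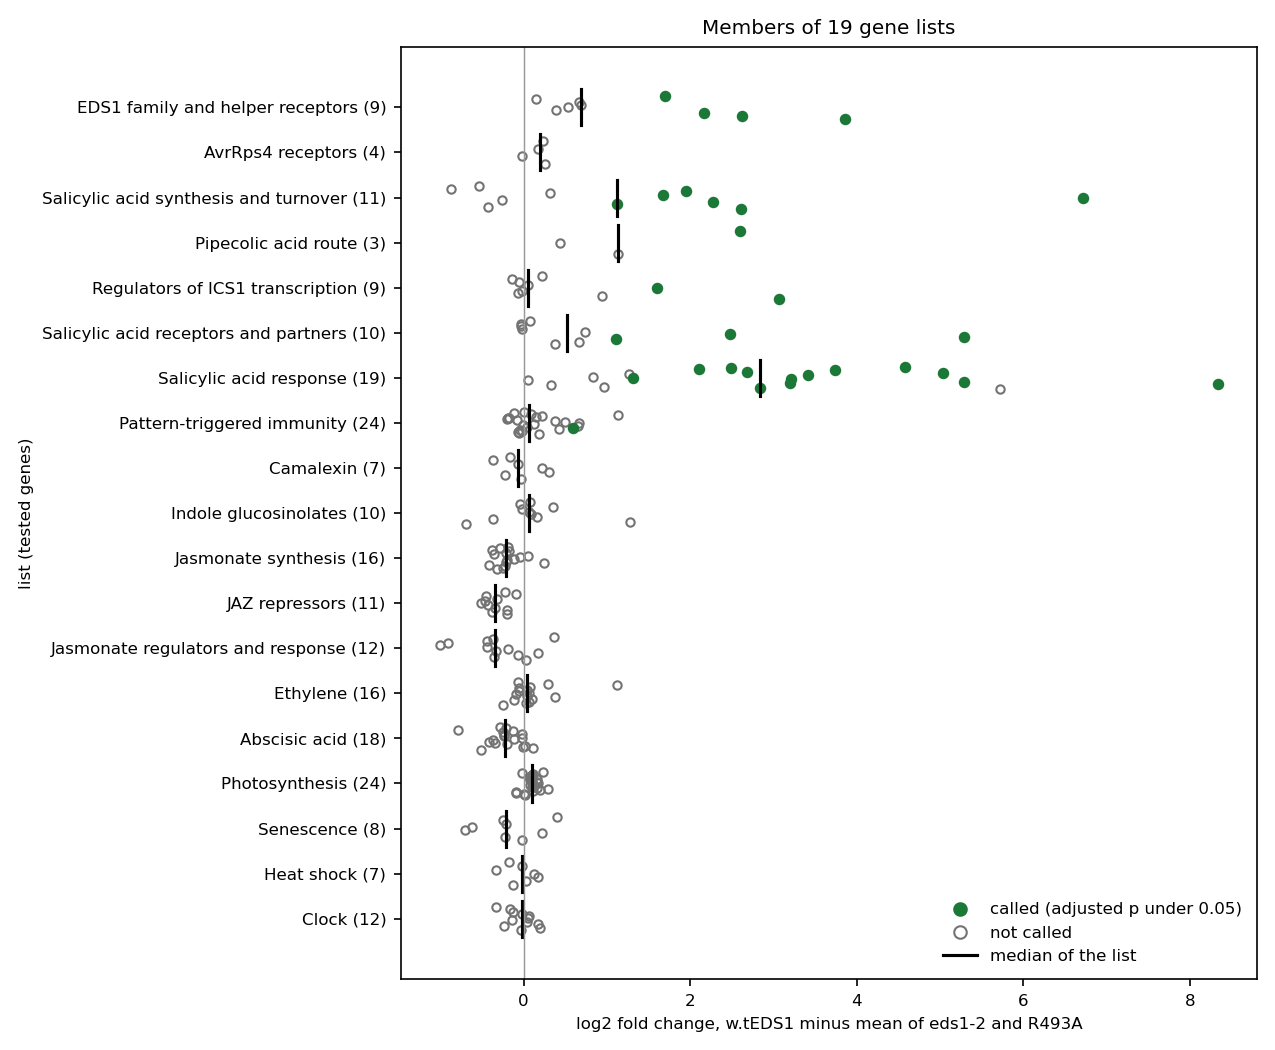
Each circle is a tested gene of 1 of 19 lists, at its log2 fold change of w.tEDS1 minus the mean of R493A and eds1-2, filled where the adjusted p is under 0.05, with a bar at the median of the list. The salicylic acid response list has 13 filled circles and a median of 2.84, while the jasmonate, abscisic acid, camalexin, clock, photosynthesis and heat shock lists have none filled.

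Outside the salicylic acid branch few genes of the lists were called. Of 24 genes of pattern-triggered immunity, the response to conserved microbial molecules, 1 was called and the median was 0.06. Over all genes tested 0.743% were called higher and the median was −0.01. In 4 of the 24 the w.tEDS1 libraries lay above all others (2.6% of all genes), and 6 had an unadjusted p under 0.05 (1066 of 18562 in all). The called gene was SOBIR1, a kinase that works with receptor-like proteins, with 158 to 219.8 CPM in w.tEDS1, 109 to 121 CPM in R493A and 126 to 146 CPM in eds1-2 (log2 change 0.59, SE 0.11, adjusted p = 0.0465). It kept its call only without w.tEDS1 replicate 1 among the libraries left out in turn (adjusted p up to 0.186). The receptors FLS2 and EFR, the oxidase RBOHD and the early marker FRK1 all overlapped between the lines, with log2 fold changes of 0.19, −0.05, 0.04 and −0.08. MPK3, a kinase of the defence cascade, was higher in each w.tEDS1 library than in any other and did not pass the test (log2 change 0.65, SE 0.13, adjusted p = 0.0714). None of 7 camalexin genes and none of 10 indole glucosinolate genes was called, and their medians were −0.07 and 0.07. MYB51, an activator of indole glucosinolate synthesis, lay above the others in w.tEDS1 at 14.9 to 34.8 CPM in w.tEDS1, 7.44 to 12.5 CPM in R493A and 9.16 to 10.2 CPM in eds1-2 (log2 change 1.27, SE 0.25, adjusted p = 0.0649).

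No jasmonate gene passed the test. The 11 tested JAZ repressors, which are themselves induced by jasmonate, all had negative values, with a median of −0.34 and a range of −0.52 to −0.10. JAZ10, the only JAZ gene with an unadjusted p under 0.05, measured 142, 139 and 93.9 CPM in w.tEDS1, against 193, 147 and 194 CPM in R493A and 129.6, 146 and 216 CPM in eds1-2 and overlapped (log2 change −0.45, SE 0.20, adjusted p = 0.85). MYC2, the main transcription factor of the response, had 195, 171 and 148 CPM in w.tEDS1, against 209, 241 and 267 CPM in R493A and 208, 168 and 224 CPM in eds1-2, and was not called (log2 change −0.35, SE 0.13, adjusted p = 0.661). VSP2, a storage protein that marks the response, measured 97.5, 84.3 and 129.9 CPM in w.tEDS1, against 125, 303 and 199 CPM in R493A and 219, 172 and 151 CPM in eds1-2. The w.tEDS1 values of VSP2 were mostly lower than the rest but overlapped R493A replicate 1 (log2 change −0.91, SE 0.27, adjusted p = 0.343). Of 16 jasmonate synthesis genes 14 were negative (median −0.21), and of 18 abscisic acid genes 16 were (median −0.22), against 9991 of 18562 genes in all, with no call in either list. Ethylene, clock, heat shock and photosynthesis lists had medians between −0.02 and 0.10 and no call.

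Whether the other lines were alike was tested in the same fit. R493A and eds1-2 differed in 9 genes, 4 higher in R493A (0.0215% of those tested) and 5 lower (0.0269%), and 643 genes had an unadjusted p under 0.05. Among the 138 genes called higher in w.tEDS1, 5 were among those 9. The 95% interval of R493A minus eds1-2 spanned 0 for 118 of the 138. Intervals that left out 0 were more frequent among them than an unadjusted p under 0.05 was over all genes tested (643 of 18562). For 136 of the 138 the upper bound lay below the w.tEDS1 change, EDS1 included. The 138 were picked for a positive w.tEDS1 change, and genes with R493A well below eds1-2 also meet this. That count therefore does not show that R493A and eds1-2 were alike. R493A was above eds1-2 in 55 and below in 83, with a median difference of −0.07 on the log2 scale. For PAD4 that interval ran from −0.35 to 0.66, for SARD1 from −1.01 to 0.25, for ICS1 from −0.68 to 0.45 and for WRKY70 from −0.81 to 0.51. With 3 libraries a line, a difference between R493A and eds1-2 within these bounds is not excluded. An interval that left out 0 was also not enough for a call: for PBS3 it ran from −1.03 to −0.05 (adjusted p = 0.999).

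**Figure D4:**
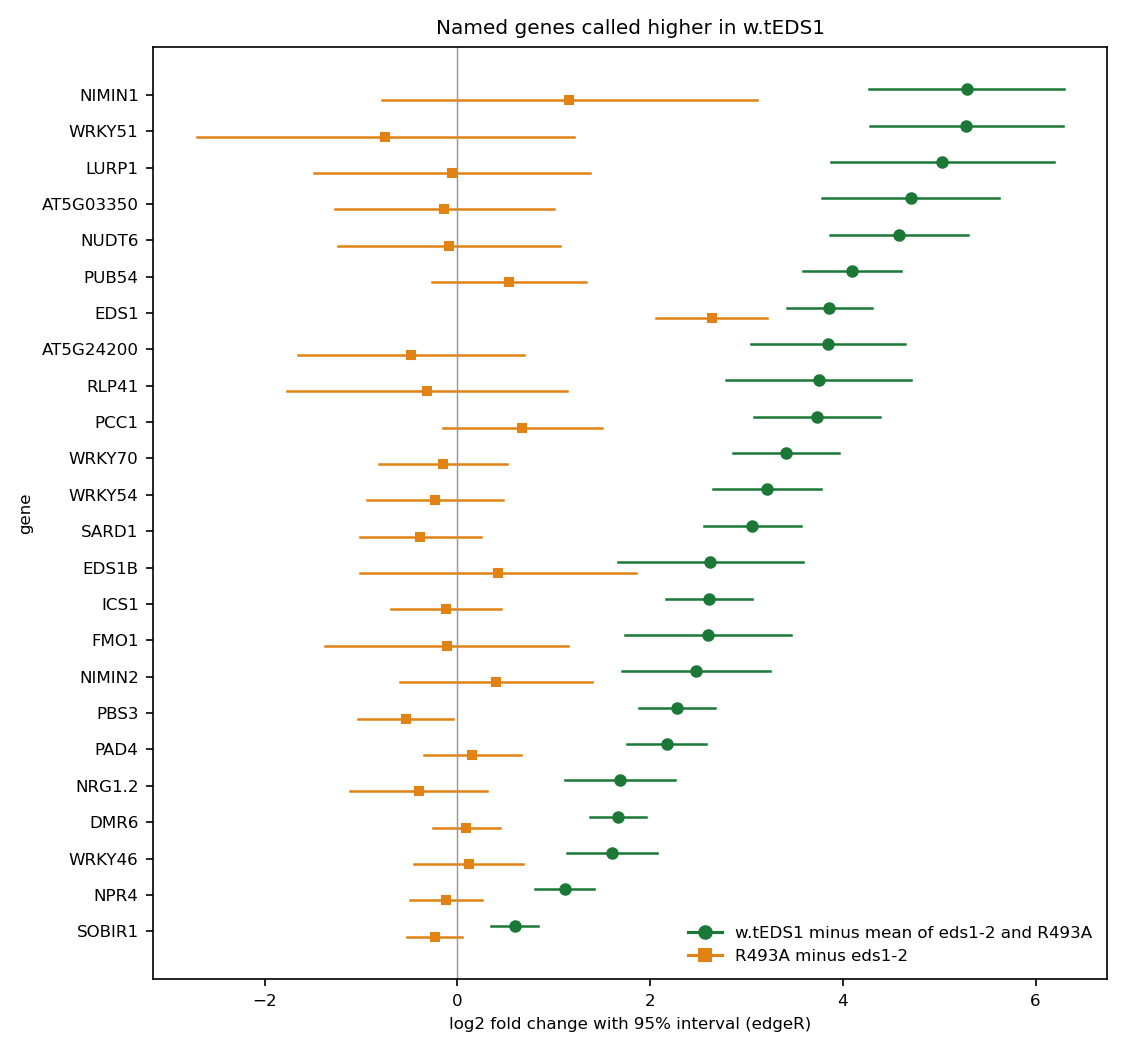
For each gene of the naming rule that was called higher in w.tEDS1, the green circle is the log2 fold change of w.tEDS1 minus the mean of R493A and eds1-2 and the orange square that of R493A minus eds1-2, with approximate 95% intervals derived from the edgeR test. EDS1 has an orange interval well above 0 (2.06 to 3.22), and that of PBS3 lies just below 0, while the others span 0.

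Set against each line by itself, w.tEDS1 had 66 genes higher than in eds1-2 (0.356%) and 1 lower (0.00539%), and 102 higher than in R493A (0.55%) and 5 lower (0.0269%). These comparisons share the w.tEDS1 libraries. Of the 138 genes, 56 were called against both lines, 27 against R493A alone, 9 against eds1-2 alone and 46 only against the mean. The change against eds1-2 and that against R493A were 2.25 and 2.09 for PAD4, 2.87 and 3.25 for SARD1, and 5.18 and 2.54 for EDS1, all on the log2 scale. All but 1 of the 138 were higher than in both lines. The exception was AT4G16870, an uncharacterized gene at 52.8, 79.4 and 71.9 CPM in w.tEDS1, against 3.1, 2.26 and 1.46 CPM in R493A and 83.2, 83.5 and 51.3 CPM in eds1-2.

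In a further set of genes R493A stood apart and w.tEDS1 did not. Besides AT4G16870, the genes called higher in w.tEDS1 whose libraries overlapped the others were AT1G58602, AT1G57650, AT4G04223, AT3G10020 and AT1G36600. AT1G58602, a receptor gene with NB-ARC and leucine-rich domains, measured 261, 241 and 226 CPM in w.tEDS1, against 68.9, 72.8 and 62.4 CPM in R493A and 227, 200.2 and 231 CPM in eds1-2. Here w.tEDS1 and eds1-2 overlapped, and all R493A libraries lay far below them (R493A minus eds1-2 −1.69, SE 0.11, adjusted p = 0.000411). AT1G57650, annotated as an ATP-binding protein, had 397 reads over the w.tEDS1 libraries, 1 over the R493A libraries and 347 over the eds1-2 libraries. In AT3G10020 and AT1G36600 the R493A libraries also lay below all others, but R493A minus eds1-2 did not pass the test (adjusted p = 0.136 for both). In these 6 genes the mean of R493A and eds1-2 stands between a low line and a line that overlapped w.tEDS1.

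In both genes called lower in w.tEDS1 the R493A libraries stood far above all others. AT5G24240, annotated as a phosphatidylinositol 4-kinase gamma-like protein, measured 0.589, 0.353 and 0.328 CPM in w.tEDS1, against 30.8, 26.7 and 34.8 CPM in R493A and 0.795, 2.83 and 0.98 CPM in eds1-2. Every w.tEDS1 library also lay below every eds1-2 library, a difference of −1.86 on the log2 scale (95% interval −3.03 to −0.68) that did not pass the test between these lines (adjusted p = 0.46). Against the mean of both lines AT5G24240 was lower in w.tEDS1 (log2 change −4.02, SE 0.45, adjusted p = 0.00294), and R493A minus eds1-2 was 4.32 (adjusted p = 0.00471). MAF5, a MADS-box relative of the flowering repressor FLC, had 0.835, 1.59 and 0.374 CPM in w.tEDS1, against 14.2, 14.3 and 19.7 CPM in R493A and 2.54, 1.09 and 1.62 CPM in eds1-2. The w.tEDS1 and eds1-2 values of MAF5 overlapped (log2 change −2.49, SE 0.41, adjusted p = 0.0241), and the call in w.tEDS1 was lost without w.tEDS1 replicate 1 or 3 or any 1 R493A library (adjusted p up to 0.107). The calls of AT5G24240 and MAF5 were lost with R493A and eds1-2 fitted as 1 group (adjusted p = 0.336 and 0.472). AT1G54420, not called between w.tEDS1 and the mean, had 204 reads in R493A and 0 in w.tEDS1 and eds1-2, so that R493A was at least 69.4-fold above w.tEDS1 and at least 73.8-fold above eds1-2.

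**Figure D5:**
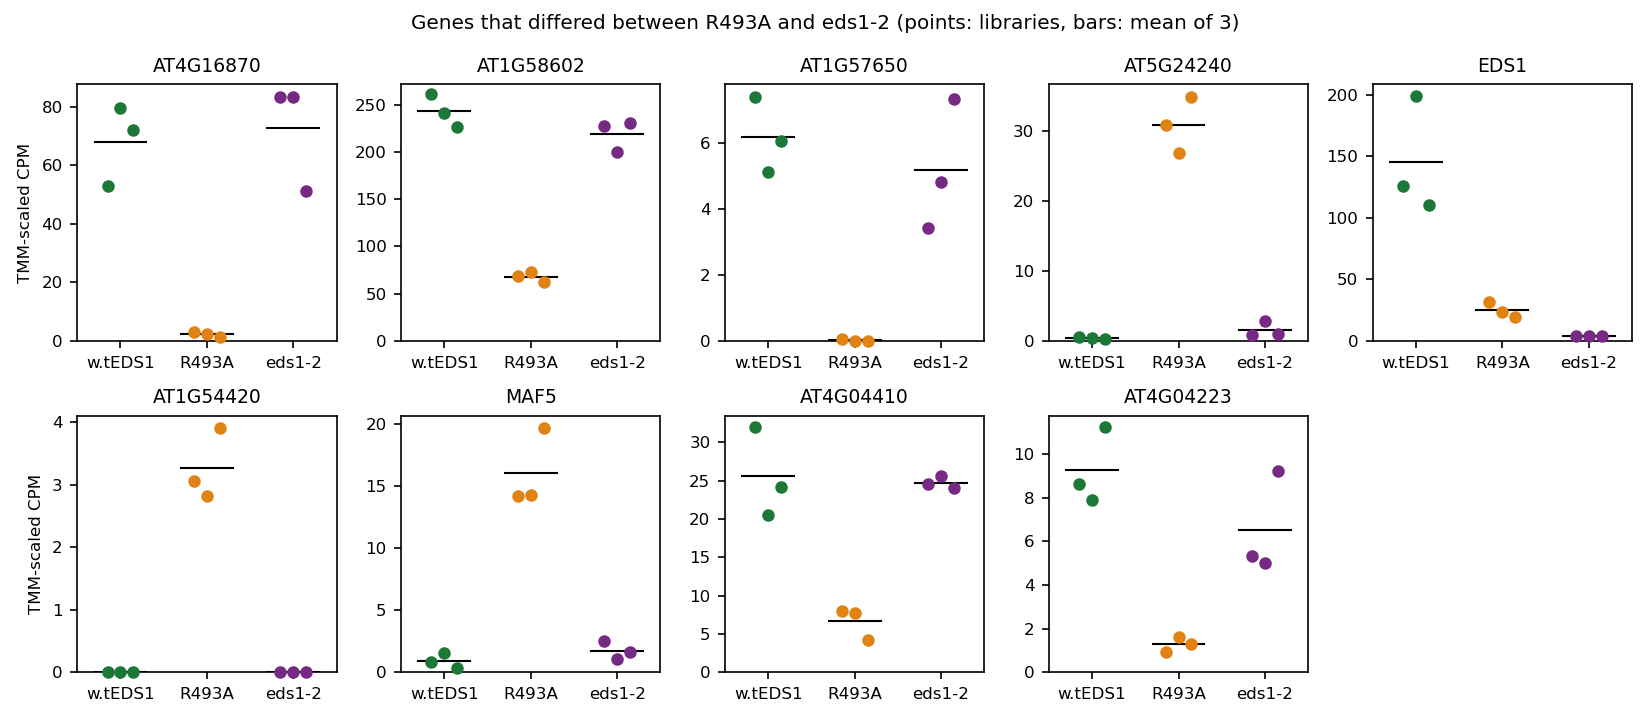
The panels plot TMM-scaled CPM on a linear axis from 0 for the 9 genes called between R493A and eds1-2, with 1 point per library and a bar at the mean of 3. Apart from EDS1, whose highest values are in w.tEDS1, the mean of w.tEDS1 lies nearer to eds1-2 than to R493A in these genes, and R493A stands alone, above the rest in AT5G24240, AT1G54420 and MAF5 and below in the other 5.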

How the data were processed

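Poly(A) RNA of 9 leaf samples was analysed from the read counts per gene deposited by the authors. The TruSeq v2 kit, named in the labels' protocols, does not mark strand, so reads from overlapping or antisense genes could not be assigned to one of them. TopHat2, HTSeq, limma and the build TAIR10 are named in the submitters' processing notes without versions or settings. The 5 summary entries that name no gene took 9.69% to 22.9% of a library and were left out.

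Groups follow the labels. Counts were filtered with filterByExpr, scaled by TMM and fitted with glmQLFit and glmQLFTest in edgeR 4.0.16 (R 4.3.3), with the genotype of 3 groups as the only term and 6 residual degrees of freedom. The contrasts were w.tEDS1 minus the mean of R493A and eds1-2, and the 3 pairs. P-values were adjusted by Benjamini-Hochberg over the 18562 tested genes, and genes under 0.05 are called. Fold changes carry a prior count of 0.125. The test gives no SE, so the SE was taken as the absolute log2 fold change divided by the square root of the F statistic. The 95% intervals add and subtract this SE times a t quantile, and both are approximate. The fit was tested on simulated data. A group without reads was set at a floor of 3 counts, and counting intervals are exact binomial ones at 95%, covering counting error only.

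The members, the 26 gene lists and the tests were chosen with earlier results of these data known. Named genes are 16 fixed names, called genes of at least 5 CPM whose w.tEDS1 libraries do not overlap the others (up to 10 in each direction), every gene called lower, and from each list at most 3 called members. Other genes, the families, the motifs and the neighbour distance were chosen after values were seen. Names and positions were looked up in RefSeq's TAIR10.1 annotation (31912 identifiers matched). Alternatives were DESeq2 1.42.0 and its size factors, no filter, limma-voom (limma 3.58.1), a replicate block, sequencing run and lane as covariates, the main run or lane 7 alone, all 12 libraries, 2 groups, a change of at least 1 on the log2 scale, and each library left out.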

Additional observations from a re-analysis of the deposited data

Results flagged for a closer look

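The 2 lines that w.tEDS1 was set against differed from each other in 9 genes, tested as R493A minus eds1-2 in the same edgeR fit. Of these genes only EDS1 was called between w.tEDS1 and eds1-2. EDS1 differed by 2.64 on the log2 scale, the codon variant being higher than the mutant in all 3 libraries. AT5G24240 (4.32), MAF5 (3.18) and AT1G54420 (9.15, a fitted value that depends on the prior count since eds1-2 had 0 reads) were higher in R493A. AT4G16870 (−4.98), AT1G57650 (−7.91, likewise dependent, with 1 read in R493A), AT1G58602 (−1.69), AT4G04410 (−1.88) and AT4G04223 (−2.33) were lower. Adjusted p-values from edgeR's quasi-likelihood test ran from 0.000411 to 0.0496. AT4G04410 measured 32, 20.5 and 24.1 CPM in w.tEDS1, against 8.05, 7.8 and 4.16 CPM in R493A and 24.6, 25.5 and 24 CPM in eds1-2, and AT4G04223, annotated as a non-coding RNA, 8.64, 7.89 and 11.2 CPM in w.tEDS1, against 0.944, 1.62 and 1.3 CPM in R493A and 5.33, 5.01 and 9.21 CPM in eds1-2. R493A did not overlap eds1-2 in any of the 9 genes, and the cause was not tested.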

How the results depend on the processing

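All 140 called genes kept their direction in each of the 20 alternative fits, and 65 of them stayed called whichever single library was left out. These fits reuse libraries of the main fit, and in 132 of the 138 genes called higher the w.tEDS1 libraries lay above all others. The kept direction was therefore largely fixed by the selection. The fit as reported called 138 genes higher and 2 lower in w.tEDS1 against the mean of R493A and eds1-2. As totals of their own, DESeq2 called 281 and 15, limma-voom 133 and 4, the main run alone 135 and 1, the lane as a covariate 9 and 1, lane 7 alone 2 and 1, all 12 libraries 50 and 2, and 2 groups 146 and 0 (1040 genes with an unadjusted p under 0.05). Of the 138 genes, 138 were among the higher calls of DESeq2, 123 of limma-voom, 101 of the main run alone, 9 with the lane as a covariate, 1 of lane 7 alone, 49 with all 12 libraries and 124 with 2 groups. With a library left out the counts ran from 77 to 149 higher and from 1 to 5 lower, with 77 without w.tEDS1 replicate 2, 79 without eds1-2 replicate 2, 89 without R493A replicate 3 and 90 without w.tEDS1 replicate 3.

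For w.tEDS1 against eds1-2 (66 higher, 1 lower), the counts were 177 and 13 in DESeq2, 42 higher in limma-voom, 2 lower with the run as a covariate, 35 and 0 in the main run alone, 2 and 0 with the lane, 0 and 0 in lane 7 alone, and 14 and 0 with all 12 libraries. Leaving out a library gave 18 to 71 higher and 0 to 0 lower. For w.tEDS1 against R493A (102 higher, 5 lower), the counts were 255 and 23 in DESeq2, 191 higher with the run, 57 and 3 in the main run alone, 9 and 1 with the lane, 1 and 1 in lane 7 alone, and 39 and 3 with all 12 libraries, and 28 to 118 higher and 2 to 8 lower with a library left out. For R493A against eds1-2 (4 higher, 5 lower), they were 3 lower with DESeq2 size factors, 10 lower without a filter, 12 and 36 in DESeq2, 1 higher in the main run alone, 0 higher with the lane, 0 and 1 in lane 7 alone, and 2 higher with all 12 libraries, and 1 to 4 higher and 3 to 6 lower with a library left out.

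Same-numbered libraries did not deviate together (correlations of −0.507 to 0.384), and the main fit does not pair them. Runs and lanes cut across the replicate numbers, and eds1-2 replicate 1 and R493A replicate 2, both from the other run, correlated at 0.528. These correlations therefore cannot tell whether same-numbered pools were grown together. The replicate block gave 99 higher and 1 lower against the mean, 36 and 0 against eds1-2, 52 and 2 against R493A, and 2 and 3 for R493A against eds1-2. Fits of the lanes have 2 or 3 residual degrees of freedom. All w.tEDS1 libraries shared lane 7, so the line and the lane can be told apart only through R493A replicate 1 and eds1-2 replicate 2. Besides the calls lost without a library, with Col-0 added or in the lane fits, some genes named here lost theirs elsewhere. FMO1, EDS1B, MAF5, SOBIR1, CRK8, CPK31, AT1G17600, AT1G36600, AT3G10020 and AT4G36150 did so under the block and in the main run alone, EDS5, RLP36 and WAK2 under the block (adjusted p up to 0.141), and NRG1.2, GRXS13 and AIG1 in the main run alone (up to 0.131). With 2 groups AT5G24240 (adjusted p = 0.336), MAF5 (0.472), SOBIR1 (0.0604), CRK8 (0.0647), AT1G36600, AT1G57650, AT1G58602, AT3G10020, AT4G04223 and AT4G16870 (0.776 to 0.998) lost theirs. With the run as a covariate EDS1B, SOBIR1, CPK31, AT1G17600, AT1G36600 and AT3G10020 did (up to 0.0725), and in limma-voom GRXS13, SOBIR1 and AT1G17600 (up to 0.0568). The cause was not tested.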

Other observations

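Some further called genes that belong to none of the lists are given as values. They were chosen after their values were seen, and no count over their families was made. AT2G41090, an EF-hand protein, measured 155 to 262 CPM in w.tEDS1, 55 to 62.3 CPM in R493A and 54.2 to 65.6 CPM in eds1-2 (log2 change 1.93, SE 0.16, adjusted p = 0.0005). AT3G47480 and AT5G39670, further EF-hand proteins, rose by 1.79 and 2.55 on the log2 scale (adjusted p = 0.00589 and 0.00438). These 3 genes stayed called whichever library was left out. CML41, a calmodulin-like protein, and CPK31, a calcium-dependent kinase, rose by 1.15 and 0.88, with calls lost without w.tEDS1 replicate 2 or R493A replicate 2 or 3, and for CPK31 also without w.tEDS1 replicate 1 or 3, eds1-2 replicate 2 or R493A replicate 1 (adjusted p up to 0.239).

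GRXS13, a glutaredoxin, had 2.55 to 9.52 CPM in w.tEDS1, 0.572 to 1.12 CPM in R493A and 0.98 to 1.35 CPM in eds1-2 (log2 change 2.55, SE 0.37, adjusted p = 0.0132). LHT7, an amino acid transporter, had 32.8 to 62.2 CPM in w.tEDS1, 8.4 to 14.7 CPM in R493A and 7.91 to 14.5 CPM in eds1-2 (log2 change 1.90, SE 0.25, adjusted p = 0.00794). AT5G55450 and AT5G55460, adjacent genes for lipid-transfer-type proteins, rose by 3.39 and 2.54 (adjusted p = 0.00112 and 0.000632), and the w.tEDS1 libraries of both lay above all others. Among 34 genes called in each of 18 further fits, which leave out the lane fits and the fold threshold, were EDS1, SARD1, WRKY50, WRKY51, WRKY54, WRKY70, NIMIN1, NPR4, DMR6, S3H, NUDT6, LURP1, PCC1, SIB1, RLP34, RLP38, LHT7 and NAC004.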
